A study of Homo sapiens with 9 samples.

Results

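The genes described here are the G1 cyclins and the cyclin-dependent kinase (CDK) inhibitors of cells labelled Huh-7, a human hepatoma line. The group was defined by symbol as CCND1, CCND2, CCND3, CCNE1, CCNE2, CCNG2, CDKN1A, CDKN1B, CDKN1C and CDKN2B. All 10 were found among the 18153 genes of the deposited gene-level table. Lentiviral particles had introduced a short hairpin RNA into stable lines: shNDRG3 targets NDRG3, shHIF1A targets HIF1A, which encodes the oxygen-regulated subunit of hypoxia-inducible factor 1, and shGFP is the control. Hypoxia was 1% oxygen, and RNA was profiled on Illumina arrays. On the first array platform 6 arrays held shNDRG3 cells at 6 h and at 12 h of hypoxia, shHIF1A cells at 12 h of hypoxia, shGFP cells at 6 h and at 12 h of hypoxia, and shGFP cells in normoxia, 1 array each. On the second platform 3 arrays held shNDRG3 cells at 24 h of hypoxia, shGFP cells at 24 h of hypoxia and shGFP cells in normoxia, again 1 array each. Knockdown cells were compared in hypoxia only, whether a line was 1 clone or a pool is not given in the sources used here, and no group had a second array, so single differences have no replicate check.

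Progress through G1 is driven by D-type cyclins, which activate CDK4 and CDK6, and then by E-type cyclins, which activate CDK2; both steps phosphorylate the retinoblastoma protein and release E2F factors. The CIP/KIP inhibitors (p21, p27 and p57, encoded by CDKN1A, CDKN1B and CDKN1C) bind cyclin-CDK complexes, and the INK4 inhibitor p15, encoded by CDKN2B, binds CDK4 and CDK6. Cyclin G2, encoded by CCNG2, is an unconventional cyclin found in cells that have stopped dividing, and hypoxia-inducible factor 1 recognises DNA through a short core motif in the regions that control its target genes.

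Among the 10 genes, CCNG2 and CDKN1A had the largest increases in hypoxia and CCND1 the largest decrease, so promoters of the first 2 are shown, and that of CCNE1 beside them as a gene whose level in hypoxia stayed near the normoxia level. The sequences are the 250 bases before the annotated start, from RefSeq on build GRCh38.p14, plus strand. Capitals mark the hypoxia response core, searched as ACGTG or GCGTG on both strands.
CCNG2 (chr4:77156957-77157206): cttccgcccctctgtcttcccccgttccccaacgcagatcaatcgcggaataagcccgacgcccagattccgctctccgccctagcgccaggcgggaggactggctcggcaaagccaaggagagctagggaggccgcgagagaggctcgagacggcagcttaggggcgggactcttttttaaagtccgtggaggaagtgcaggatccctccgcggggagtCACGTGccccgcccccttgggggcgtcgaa
CDKN1A (chr6:36678464-36678713): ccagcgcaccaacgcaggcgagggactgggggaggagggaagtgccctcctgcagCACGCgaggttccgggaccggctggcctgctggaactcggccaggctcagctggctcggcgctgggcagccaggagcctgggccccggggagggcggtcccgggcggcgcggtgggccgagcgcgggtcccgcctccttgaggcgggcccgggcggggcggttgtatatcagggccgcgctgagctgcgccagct
CCNE1 (chr19:29811741-29811990): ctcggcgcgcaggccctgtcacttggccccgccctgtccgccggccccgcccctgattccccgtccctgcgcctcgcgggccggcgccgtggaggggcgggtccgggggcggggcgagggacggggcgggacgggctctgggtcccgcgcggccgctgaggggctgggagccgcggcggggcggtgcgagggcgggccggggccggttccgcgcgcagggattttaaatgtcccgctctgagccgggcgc

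In CCNG2 the letters ACGTG were found on both strands of a single palindrome, 30 to 25 bases before the start. The CDKN1A window held GCGTG on the minus strand, 195 to 191 bases before its start, which lies inside the annotated gene (chr6:36676463-36687332). The CCNE1 window held neither form, and it held 7 copies of the GC box letters GGGCGG over both strands. Of 35116 promoters of this length, 43.2% held ACGTG or GCGTG, 18.5% held ACGTG and 42.6% held GGGCGG, so the core is a common match. Promoters were listed for 6 of the 10 genes, and GCGTG was also found in CDKN1B, 185 to 181 bases before the start on the minus strand, and at 1 of the 3 starts of CCND3. The letters TTTCGCGC and TTTGGCGC of the E2F site, held by 0.968% of promoters, and GTAAACA of the FOXO site, held by 2.98%, were not found in these windows. CCND1 (chr11:69641156-69654474), CCND2, CCNE2 and CDKN1C are named only.

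Values are array intensities on a linear scale, and differences are given as log2(intensity + 32) of the first-named group minus the second, within a platform. The 10 genes all exceeded the 40th percentile of intensity (127.3 on the first platform, 210.2 on the second) on every array, so none was lost to the filter on dim genes. Median intensity per gene was 169 to 173 on the first platform and 270 to 276 on the second. The hairpins lowered their targets: NDRG3 read 268, 215 and 233 on the shNDRG3 arrays of 6, 12 and 24 h, against 1278, 1456 and 1712 on the shGFP arrays, and HIF1A read 231 on the shHIF1A array, against 897 on its shGFP array. HIF1A also read 331 on the 24 h shNDRG3 array, against 572 on the shGFP array. Of 17 hepatocyte genes in the table, 1 to 4 exceeded the filter value on any one array, and ALB, a defining marker, was at most 229. AFP and SERPINA1 stayed below the filter value on every array. The hepatocyte markers thus do not bear out the liver origin that the Huh-7 label gives, and the reason was not tested. Of the 4 leukocyte markers CD68 was the brightest on every array, and it read 1095, 1870 and 572 on the shNDRG3 arrays of 6, 12 and 24 h, 895, 1585 and 1439 on the shGFP hypoxia arrays, and 739 and 640 on the shGFP normoxia arrays. Summed over the 4 markers the first platform read 1419 and 2175 in shNDRG3 cells, 2104 in shHIF1A cells, 1192 and 1895 in shGFP cells in hypoxia and 1075 in normoxia, and the second read 1093, 1938 and 1180. PTPRC and CD3E stayed below the filter value throughout. The fibroblast marker COL1A1 was 412, 300 and 315 in shGFP cells at 6, 12 and 24 h of hypoxia, against 449 and 518 in normoxia, and 1 to 3 of the 6 fibroblast markers exceeded the filter value. At most 2 of 4 endothelial markers and the erythroid marker HBB on 1 array did so, and the part of these markers in the results was not tested.

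**Figure D1:**
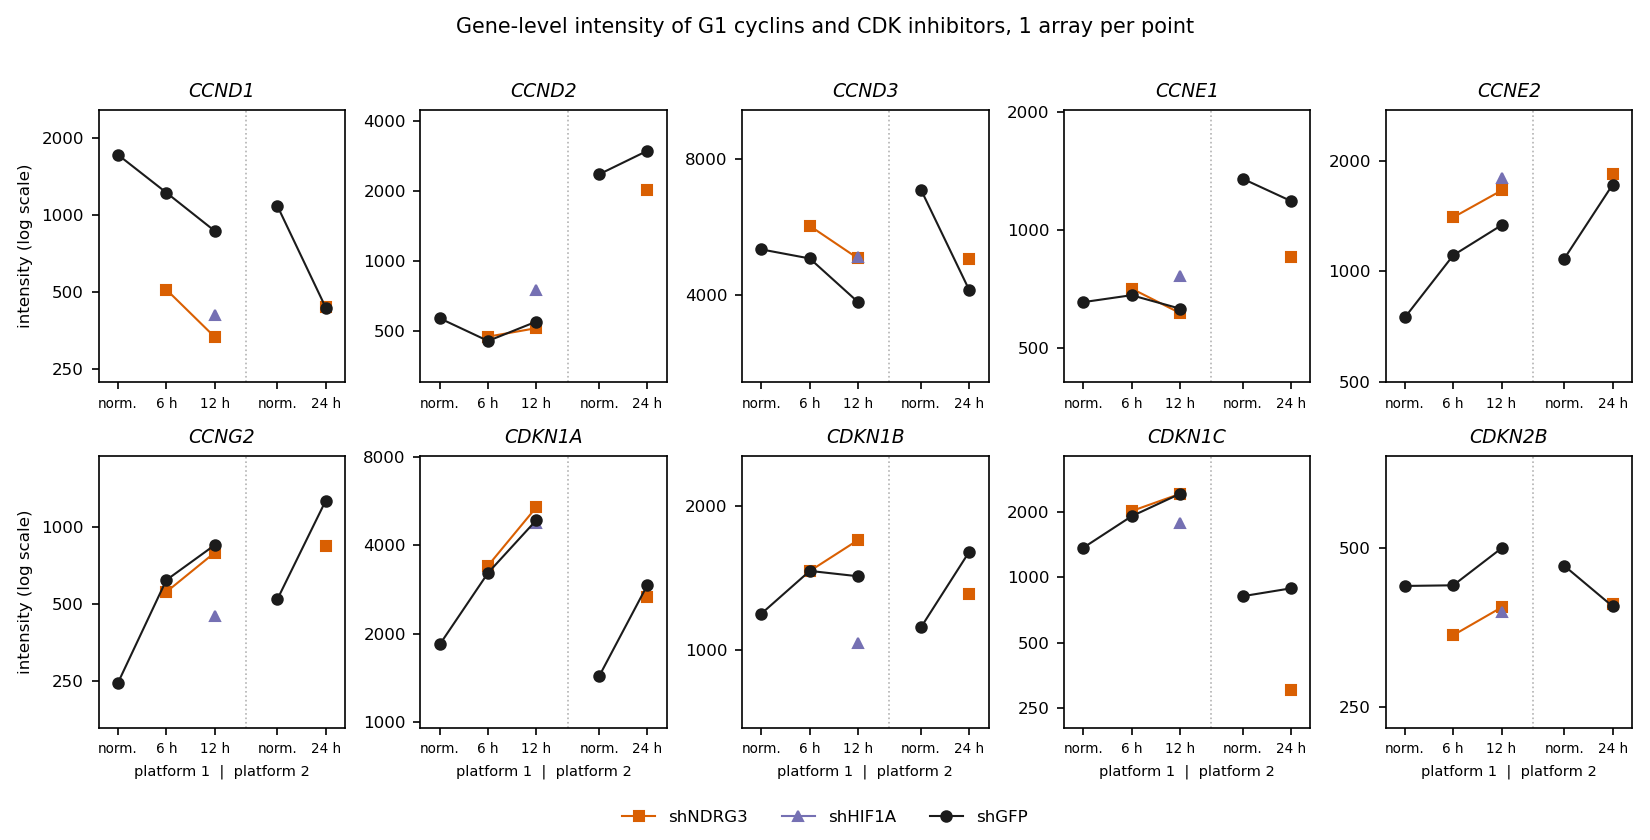
Gene-level intensity (log scale) of the 10 genes on the 9 arrays, 1 array per point; orange squares are shNDRG3 cells, purple triangles shHIF1A cells and black circles shGFP cells, from normoxia (norm.) to the longest hypoxia, with a dotted line between the platforms. CCND1 was lower and CCNG2 and CDKN1A were higher on all 3 shGFP hypoxia arrays than on the normoxia array of their platform.

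The first comparison asked how the G1 genes of control cells differed after 6, 12 and 24 h of low oxygen. In RNA of whole cultures, fewer cells that express a gene and less of its RNA per cell cannot be told apart. The cyclin G2 gene rose and was the single member to pass the test over all times. The p21 gene was higher at every time, the cyclin D1 gene lower at every time and the cyclin E2 gene higher at every time, without passing. At least 1.5-fold differences were seen at 6 h for 2 genes, both higher (CCNG2 and CDKN1A), where 2.31% of the 11348 genes tested were that much higher, and no member was lower, against 1.13%. At 12 h 4 genes were that much higher (CCNE2, CCNG2, CDKN1A and CDKN1C), against 7.0% of all genes, and 1 was lower (CCND1), against 7.03%. At 24 h 3 genes were that much higher (CCNE2, CCNG2 and CDKN1A), against 8.97% of all genes, and 2 were lower (CCND1 and CCND3), against 9.2%. The median difference of the 4 inhibitor genes was 0.38, 0.53 and 0.31 at 6, 12 and 24 h, that of the 6 cyclin genes was -0.0048, -0.05 and 0.07, and that of all genes tested was -0.02, -0.01 and -0.03. The 6 h and 12 h comparisons share their normoxia array.

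In limma over the 5 shGFP arrays, with platform as a block and the times standing in for replicates, 0.438% of 12774 genes passed a Benjamini-Hochberg adjusted p of 0.05, and 1 of the 10 members was among them. The p-values therefore measure the spread between times of 1 line, on 2 residual degrees of freedom, and not the spread between cultures. The 24 h time is also the second platform, so this spread includes that between platforms. limma's prior over all genes added 5.07 degrees of freedom. At an unadjusted p under 0.05 there were 2480 genes.

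The D-type cyclins act first in G1. CCND1 intensity was 1224 at 6 h and 867 at 12 h of hypoxia, against 1719 in normoxia, and 435 at 24 h of hypoxia, against 1084 in its own normoxia array. Every hypoxia array lay below the normoxia array of its platform, and the later time of the first platform was the lower. The log2 differences were -0.48, -0.96 and -1.26, which left 71.2%, 50.5% and 40.1% of the normoxia intensity. At 24 h CCND1 ranked 89 from the lowest of the 11635 genes tested. In limma the CCND1 difference over the times was -0.95 (SE 0.20, adjusted p = 0.112), and it passed only without the 6 h arrays, at -1.11 (limma adjusted p = 0.00962).

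CCND2, the D-type cyclin gene on chromosome 12, had intensities of 454 and 550 at 6 and 12 h of hypoxia, against 568 in normoxia, and 2977 at 24 h of hypoxia, against 2359 in normoxia. The shGFP hypoxia arrays were below normoxia on the first platform and above it on the second. Its log2 differences were -0.30, -0.04 and 0.33. CCND3, a further D-type cyclin gene, had intensities of 4826 and 3866 at 6 and 12 h of hypoxia, against 5053 in normoxia, and 4112 at 24 h of hypoxia, against 6847 in normoxia. All 3 hypoxia arrays were below normoxia, and the differences were -0.07, -0.38 and -0.73. The limma difference of CCND3 was -0.44 (SE 0.17, adjusted p = 0.232), and that of CCND2 was 0.04 (SE 0.17, adjusted p = 0.914).

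The E-type cyclin genes, whose products activate CDK2 late in G1, differed from each other. CCNE1 intensity was 683 and 631 at 6 and 12 h of hypoxia, against 655 in normoxia, and 1187 at 24 h of hypoxia, against 1354 in normoxia. The arrays lay on both sides of normoxia, with log2 differences of 0.06, -0.05 and -0.18. CCNE2 intensity was 1107 and 1337 at 6 and 12 h of hypoxia, against 750 in normoxia, and 1725 at 24 h of hypoxia, against 1084 in normoxia. The CCNE2 arrays in hypoxia all lay above normoxia, by 0.54, 0.81 and 0.65 on the log2 scale. In limma CCNE2 differed by 0.67 (SE 0.14, adjusted p = 0.112). It passed only in the fit without the 6 h arrays, which called 949 of 12644 genes, at 0.73 (limma adjusted p = 0.0318). CCNE1 differed by -0.08 (SE 0.13, limma adjusted p = 0.783).

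CCNG2 (chr4:77157207-77170060), the gene of the palindrome shown above, had the largest hypoxia differences of the 10 genes at 6 h and 12 h. Its intensity was 618 at 6 h and 847 at 12 h of hypoxia, against 245 in normoxia, and 1264 at 24 h of hypoxia, against 521 in normoxia. All hypoxia arrays were above the normoxia array of their platform, with log2 differences of 1.23, 1.66 and 1.23. At 6 h CCNG2 ranked 61 from the highest of 11348 genes, at 12 h 83 of 11420 and at 24 h 184 of 11635. CCNG2 rose by 1.35 (SE 0.17, limma adjusted p = 0.0305) over the times, higher at 3 of 3 times. The call was lost with no filter on dim genes (limma adjusted p = 0.142) and with the higher pseudocount tried (0.121), and the adjusted p ranged from 0.00418 to 0.142 over 9 alternatives.

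The CIP/KIP inhibitor genes were higher on every shGFP hypoxia array than on the normoxia array of its platform. CDKN1A intensity was 3224 and 4880 at 6 and 12 h of hypoxia, against 1837 in normoxia, and 2934 at 24 h of hypoxia, against 1432 in normoxia. The log2 differences were 0.80, 1.39 and 1.02, or 175%, 266% and 205% of the normoxia intensity. Over the times the CDKN1A difference was 1.06 (SE 0.19, limma adjusted p = 0.0865), and it passed with a filter at the 60th percentile (0.0384) and without the 6 h arrays, at 1.21 (limma adjusted p = 0.00817). Those fits called 148 of 8568 genes and 949 of 12644 genes, in that order.

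CDKN1B, the p27 gene, had intensities of 1463 and 1426 at 6 and 12 h of hypoxia, against 1192 in normoxia, and 1603 at 24 h of hypoxia, against 1115 in normoxia. These were higher by 0.29, 0.25 and 0.51 on the log2 scale, each under 1.5-fold. CDKN1C, the p57 gene, had intensities of 1907 and 2418 at 6 and 12 h of hypoxia, against 1367 in normoxia, and 890 at 24 h of hypoxia, against 819 in normoxia. Its differences were 0.47, 0.81 and 0.12, so the 24 h array was close to its normoxia array while the earlier arrays were well above theirs. In limma CDKN1B differed by 0.37 (SE 0.13, adjusted p = 0.197) and CDKN1C by 0.42 (SE 0.18, adjusted p = 0.259).

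CDKN2B, the INK4 inhibitor gene on chromosome 9, had intensities of 425 and 500 at 6 and 12 h of hypoxia, against 424 in normoxia, and 388 at 24 h of hypoxia, against 463 in normoxia. The hypoxia arrays lay at, above and below normoxia, with log2 differences of 0.0038, 0.22 and -0.24. Its limma difference was -0.04 (SE 0.15, adjusted p = 0.915).

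**Figure D2:**
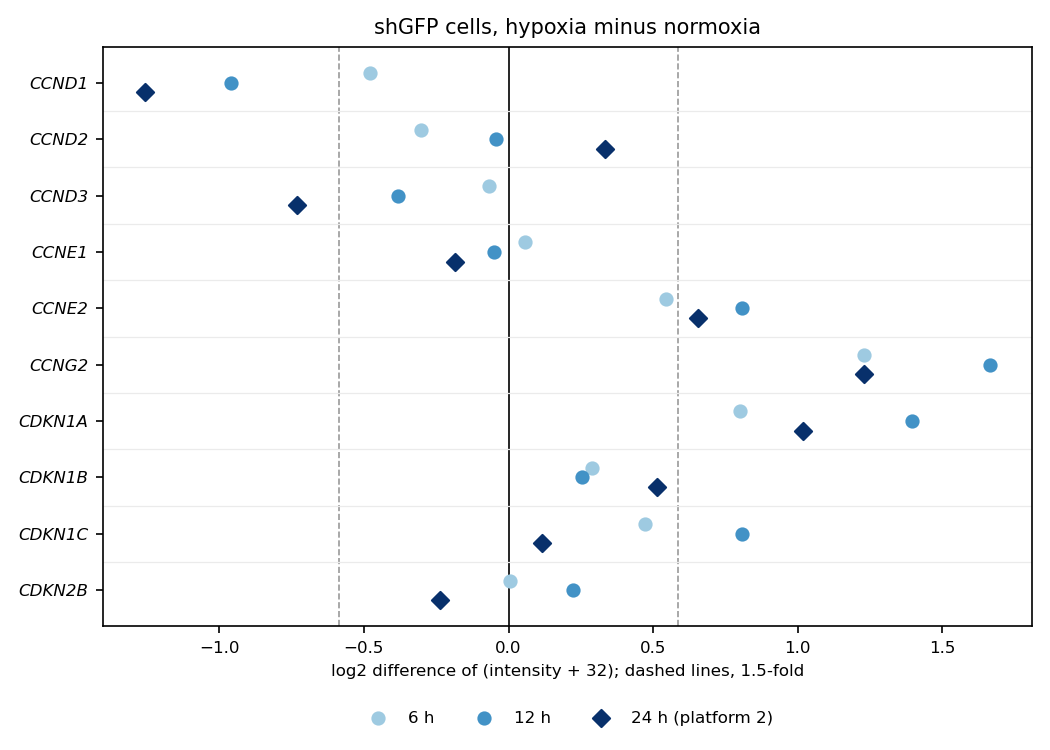
Difference of each gene in shGFP cells, hypoxia minus normoxia, in log2(intensity + 32), at 6, 12 and 24 h; each point compares 1 array with 1 array and dashed lines mark 1.5-fold. CCNG2 lay beyond the upper line at all 3 times (1.23, 1.66 and 1.23), CDKN1A likewise (0.80, 1.39 and 1.02), and CCND1 beyond the lower line at 12 h and 24 h (-0.96 and -1.26).

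The second comparison asked how these genes differed in hypoxia between cells with less NDRG3 and control cells. The cyclin D1 gene was far dimmer in shNDRG3 cells than in shGFP cells at 6 h and 12 h and was at the control level at 24 h, and CDKN1C was lower at 24 h alone. The other members stayed within 1.5-fold at all times, although CCNG2 and CCND2 were close to it at 24 h, where CCNG2 passed it with no pseudocount (-0.59) and both did after background subtraction (-0.65 for CCNG2 and -0.59 for CCND2). At 6 h CCND1 was the 1 gene of 10 at least 1.5-fold lower, where 0.423% of 11336 genes were lower and the same share higher. At 12 h it was again the 1 such gene, against 0.76% of 11322 genes lower and 0.654% higher. At 24 h CDKN1C was the 1 gene of 10 at least 1.5-fold lower, against 6.93% of 11582 genes lower and 5.53% higher, so differences were more frequent over the whole table at 24 h than earlier. Time and platform cannot be told apart there.

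At 6 h CCND1 read 512 on the shNDRG3 array, against 1224 on the shGFP array, and at 12 h it read 334 on the shNDRG3 array, against 867 on the shGFP array. The 24 h arrays read 438 in shNDRG3 cells and 435 in shGFP cells. The shNDRG3 arrays were far below their controls on the first platform and level with the control on the second, where the control itself was at 40.1% of its normoxia value. The log2 differences were -1.21, -1.30 and 0.01. CCND1 ranked 4 from the lowest of 11336 genes at 6 h and 3 from the lowest of 11322 at 12 h, where NDRG3 ranked 1 both times, and it ranked 5397 of 11582 at 24 h. In limma over all 9 arrays, with a mean for each oxygen condition and time and 1 NDRG3 term, CCND1 differed by -0.83 (SE 0.26, adjusted p = 0.556). Of 13237 genes 1 passed, NDRG3 itself (0.00755%), so no member was called, and 1129 genes had an unadjusted p under 0.05. Without the 24 h arrays the CCND1 difference was -1.25 (limma adjusted p = 3.55e-10, with 1 residual degree of freedom), in a fit that called 646 of 12156 genes. That p-value measures the spread between 6 h and 12 h, and not between cultures. Most of its precision comes from limma's prior over all genes (26.3 degrees of freedom). Over 9 alternatives the limma adjusted p of CCND1 ranged up to 0.906.

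The other cyclin genes had smaller differences. At 6, 12 and 24 h CCND2 read 474, 516 and 2014 on the shNDRG3 arrays, against 454, 550 and 2977 on the shGFP arrays, or 0.06, -0.09 and -0.56 on the log2 scale. CCND3 intensity was 5694, 4826 and 4819 in shNDRG3 cells, against 4826, 3866 and 4112 in shGFP cells, and the shNDRG3 array was the higher at each time, by 0.24, 0.32 and 0.23. CCNE1 intensity was 710, 615 and 852 in shNDRG3 cells, against 683, 631 and 1187 in shGFP cells, differences of 0.05, -0.04 and -0.46. Both CCND2 and CCNE1 thus lay near their controls at the earlier times and below them at 24 h. CCNE2 intensity was 1405, 1663 and 1840 in shNDRG3 cells, against 1107, 1337 and 1725 in shGFP cells, higher by 0.33, 0.31 and 0.09. CCNG2 intensity was 555, 791 and 842 in shNDRG3 cells, against 618, 847 and 1264 in shGFP cells, differences of -0.15, -0.09 and -0.57. All 3 shNDRG3 arrays were the lower for CCNG2, with 24 h the farthest apart. The limma NDRG3 differences were 0.26 for CCND3 (SE 0.09, adjusted p = 0.557), 0.24 for CCNE2 (SE 0.09, adjusted p = 0.584) and -0.27 for CCNG2 (SE 0.12, adjusted p = 0.604). Without the 24 h arrays CCNE2 passed at 0.32 (limma adjusted p = 0.0364), in the fit that called 646 of 12156 genes. As for CCND1, that p-value measures the spread between 6 h and 12 h, and not between cultures.

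Among the inhibitor genes CDKN1A was close to its controls throughout. It read 3412, 5402 and 2677 on the shNDRG3 arrays of 6, 12 and 24 h, against 3224, 4880 and 2934 on the shGFP arrays, differences of 0.08, 0.15 and -0.13. CDKN1B intensity was 1462, 1697 and 1308 in shNDRG3 cells, against 1463, 1426 and 1603 in shGFP cells, differences of -0.0009, 0.25 and -0.29. Neither gene kept a direction over the times. CDKN1C intensity was 2015, 2418 and 305 in shNDRG3 cells, against 1907, 2418 and 890 in shGFP cells. The 12 h arrays held the same value, and the 24 h array of shNDRG3 cells was at 34.3% of its control. The CDKN1C differences were 0.08, 0 and -1.45, and at 24 h it ranked 129 from the lowest of 11582 genes. In limma CDKN1C differed by -0.46 (SE 0.30, adjusted p = 0.656). CDKN2B intensity was 342, 386 and 392 in shNDRG3 cells, against 425, 500 and 388 in shGFP cells, differences of -0.29, -0.35 and 0.01. As for CCND1, the CDKN2B arrays of shNDRG3 cells were lower at 6 h and 12 h and level at 24 h. The CDKN2B limma difference was -0.21 (SE 0.11, adjusted p = 0.616), and without the 24 h arrays it passed at -0.32 (limma adjusted p = 0.0379). The latter fit called 646 of 12156 genes, and its p-value carries the limits given for CCND1.

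The third comparison set shHIF1A cells against shGFP cells at 12 h of hypoxia. CCND1 and CCNG2, which lay on opposite sides of normoxia in control cells, were both lower in shHIF1A cells, and CDKN1A was at the control level. These 2 genes were the members at least 1.5-fold lower, where 3.04% of 11414 genes were, and no member was that much higher, against 3.24%. CCND1 read 407 on the shHIF1A array, against 867 on the shGFP array, which is -1.03 on the log2 scale and rank 62 from the lowest. The shNDRG3 array of the same time, set against the same shGFP array, had a CCND1 intensity of 334. CCNG2 intensity was 449 in shHIF1A cells, against 847 in shGFP cells, a difference of -0.87 and rank 116 from the lowest. This CCNG2 level lay between the shGFP arrays of 12 h of hypoxia and of normoxia (245). At 24 h in shNDRG3 cells, where HIF1A was also dimmer than in its control, CCNG2 differed by -0.57 (-0.40 and -1.09 by its probes). Whether the HIF1A and CCNG2 differences there are linked was not tested.

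The remaining genes stayed within 1.5-fold of the control. CCND2 intensity was 751 in shHIF1A cells, against 550 in shGFP cells, CCND3 4851 against 3866, CCNE1 763 against 631 and CCNE2 1803 against 1337. These cyclin genes were all higher in shHIF1A cells, by 0.43, 0.32, 0.26 and 0.42 on the log2 scale. CDKN1A intensity was 4774 in shHIF1A cells, against 4880 in shGFP cells, a difference of -0.03. CDKN1B intensity was 1033 in shHIF1A cells, against 1426 in shGFP cells, CDKN1C 1773 against 2418 and CDKN2B 378 against 500. These inhibitor genes were all lower, by -0.45, -0.44 and -0.38. The median difference was 0.29 over the 6 cyclin genes, -0.41 over the 4 inhibitor genes and 0.0053 over all genes tested. In limma no gene of 13237 passed for HIF1A, against 1433 at an unadjusted p under 0.05. That fit gave CCNG2 -0.96 (SE 0.19, adjusted p = 0.186), CCND1 -0.80 (SE 0.41, adjusted p = 0.591) and CDKN1B -0.58 (SE 0.20, adjusted p = 0.371). The HIF1A term rests on 1 array, assumed to vary like the others. Its 12 h reference was not the shGFP array alone but also the shNDRG3 array, corrected by the NDRG3 difference pooled over the times. The fitted values therefore depart from the direct ones, as for CDKN1B at -0.58 against -0.45 and CCND1 at -0.80 against -1.03. Without the 24 h arrays the fit had 1 residual degree of freedom, from how the NDRG3 difference changed between 6 h and 12 h. The rest of its spread came from limma's prior over all genes (26.3 degrees of freedom). No spread between shHIF1A arrays was measured, so differences alone are given. CCNG2 was at -0.88 and CCND1 at -1.01 in that fit. CCND2 and CCNE2 were higher, at 0.46 and 0.43, and CDKN1B, CDKN1C and CDKN2B lower, at -0.51, -0.42 and -0.36.

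**Figure D3:**
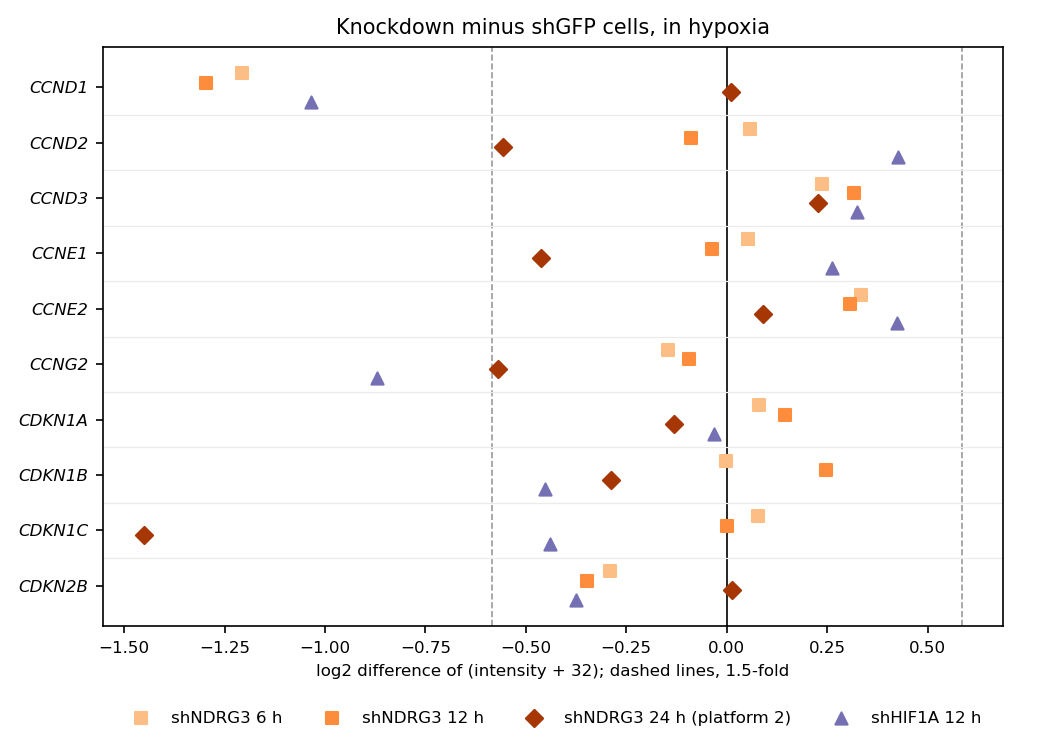
Difference of each gene in hypoxia, knockdown minus shGFP cells, in log2(intensity + 32); squares and diamonds are shNDRG3 cells at 6, 12 and 24 h, triangles are shHIF1A cells at 12 h, and dashed lines mark 1.5-fold. CCND1 lay beyond the lower line on 3 of 4 points and at 0.01 for shNDRG3 cells at 24 h, where CDKN1C was at -1.45.

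The gene values were then traced to probes. For 9 of the 10 genes the deposited value equalled a single probe or the mean of 2 or 3 probes, with the same probe IDs on both platforms. CCND1, CCND3 and CDKN1C rest on 1 probe, CDKN2B on 3 and the remaining matched genes on 2, and no such match was found for CCNE1. The probes of CCNG2 gave the same direction in hypoxia at every time. Probe 1 differed by 1.08, 1.40 and 1.28 and probe 2 by 1.33, 1.82 and 1.12 at 6, 12 and 24 h, and in shHIF1A cells they differed by -0.89 and -0.86. In shNDRG3 cells at 24 h they parted. Probe 1 of CCNG2 was 1355 in shNDRG3 cells, against 1793 in shGFP cells, and probe 2 was 329 in shNDRG3 cells, against 734 in shGFP cells, differences of -0.40 and -1.09.

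For CDKN1A the probe well above the filter value was not the same on both platforms. ILMN_1784602 read 3570 to 10549 on the first platform and 180 to 240 on the second, whose filter value is 210.2. ILMN_1787212 read 104 to 254 on the first platform, whose filter value is 127.3, and 2684 to 5628 on the second. By these IDs the CDKN1A value follows a different probe on each platform, but whether an ID stands for the same probe in both tables was not checked. The brighter probe also changed between platforms for NDRG3 and CCNG2. In normoxia CCNG2 probes 1 and 2 read 194 and 296 on the first platform and 721 and 320 on the second. The bright CDKN1A probe of each platform differed by 0.81 and 1.41 at 6 and 12 h of hypoxia and by 1.06 at 24 h, and the dim one by 0.37, 0.83 and 0.36. For CCNE2 probe 1 stayed below the filter value on all arrays (90 to 197), and probe 2 carried the signal, with hypoxia differences of 0.60, 0.87 and 0.69. The CDKN1B probes differed by -0.53 and -0.01 in shNDRG3 cells at 24 h, so the gene value there averages a probe that was lower and one that was level. Of the CDKN2B probes the brightest differed by -0.48 and -0.49 in shNDRG3 cells at 6 and 12 h, and by -0.49 in shHIF1A cells, while the dimmest differed by -0.01, 0.04 and -0.18. CCND2 in shHIF1A cells was likewise at 0.04 by probe 1 and at 0.58 by probe 2.

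**Figure D4:**
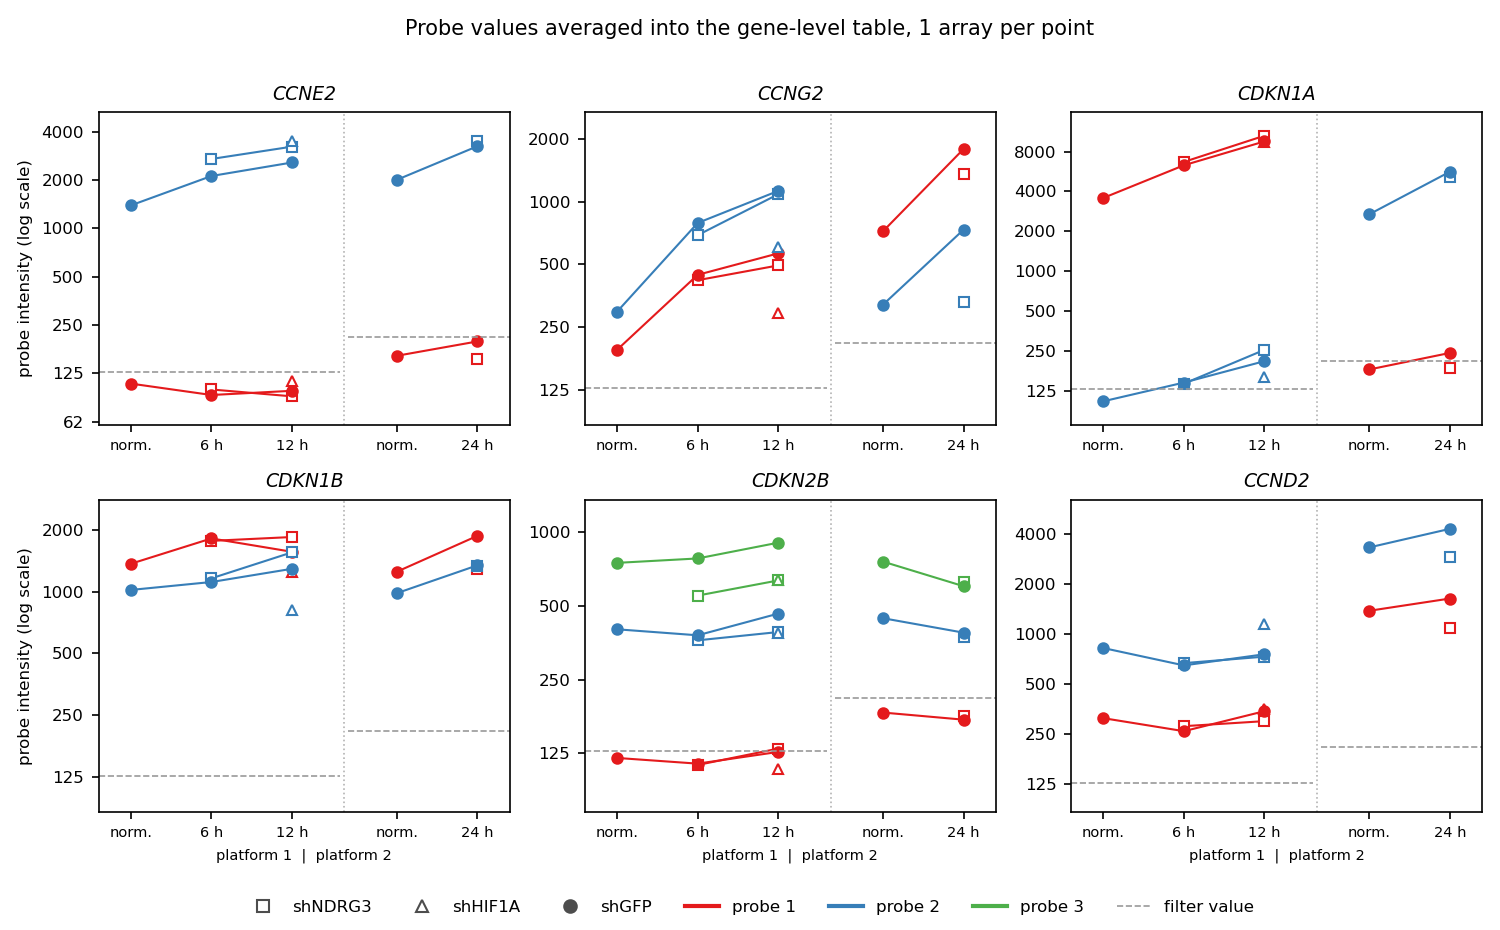
Intensity (log scale) of the probes whose mean equals the gene value, for the 6 genes with 2 or 3 probes; open squares are shNDRG3 cells, open triangles shHIF1A cells and filled circles shGFP cells, colours are probes, and dashed lines are the filter values (127.3 and 210.2). By the IDs of the 2 tables, which were not checked against probe sequences, the bright CDKN1A probe differs between the platforms, and probe 1 of CCNE2 lies below the filter value on all 9 arrays.

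Across the 9 arrays, with the mean of each platform removed from log2 values, CCND1 ran opposite to CCNE2 (Pearson r = -0.95) and to CDKN1A (r = -0.85). CCNE2 and CDKN1A (r = 0.94) and CCNG2 and CDKN1A (r = 0.86) ran together. These pairs were picked as the extremes, over arrays that share a normalization and, in part, cell lines, and are descriptions. Among 8816 genes over the filter on all arrays, CARMIL1 was the most like CCND1 (r = 0.98), followed by EFEMP1 (r = 0.97), the WNT antagonist gene DKK1 and the tubulin gene TUBB4B (r = 0.96 each). DKK1 intensity, like that of CCND1, was low in knockdown cells on the first platform, at 190 and 178 in shNDRG3 cells and 207 in shHIF1A cells, against 466 and 427 in shGFP cells at 6 and 12 h. At 24 h DKK1 was 249 in shNDRG3 cells, 266 in shGFP cells and 474 in normoxia. The genes most like CCNG2 were ULK3, TOX4, GBE1, which encodes the glycogen branching enzyme, and RAB11FIP5 (all r = 0.98). GBE1 intensity was 2445 in shHIF1A cells, against 4501 in shGFP cells at 12 h and 1619 in normoxia. For CDKN1A, the inhibitor gene with the widest range within a platform, they were ZNF318 (r = 0.99), NAMPT, LOX and PGAP6 (all r = 0.98).

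Other cell cycle genes were counted by list. One list held 17 kinases and regulators, not all of them particular to G1, such as AURKA and WEE1. Of these 17 none was at least 1.5-fold higher in hypoxia at any time, 5 were that much lower at 12 h, against 7.03% of all genes, and 4 at 24 h, against 9.2%. AURKA was among those lower, at -0.87 at 12 h and -0.65 at 24 h. CKS2, a CDK-binding subunit, had an intensity of 5092 at 12 h of hypoxia, against 10787 in normoxia, a difference of -1.08. The list's median was -0.13, -0.31 and -0.24 at 6, 12 and 24 h, against -0.02, -0.01 and -0.03 over all genes. None of the 17 passed limma for hypoxia over all times (lowest adjusted p = 0.162). CDK6, a partner of the D-type cyclins, read 738 on the 24 h shNDRG3 array, against 1478 on the shGFP array, a difference of -0.97, where its differences at 6 and 12 h were -0.01 and -0.03.

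Of 13 genes of the retinoblastoma and E2F families none passed limma for hypoxia over all times. E2F7, a repressor of the family, had differences of 0.53, 0.90 and 1.15 in hypoxia and a limma difference of 0.90 (SE 0.17, adjusted p = 0.0972). E2F5, which pairs with the retinoblastoma relatives, was 590 at 12 h of hypoxia, against 1534 in normoxia, with hypoxia differences of -0.41, -1.33 and -0.64. E2F5 also read 596, 363 and 2104 on the shNDRG3 arrays of 6, 12 and 24 h, against 1148, 590 and 1902 on the shGFP arrays. Its NDRG3 differences of -0.91, -0.65 and 0.14 were below control at the same times as those of CCND1. None of 15 genes driven by E2F passed limma for hypoxia over all times, and their median difference was -0.02, -0.09 and -0.02. TK1, the thymidine kinase gene, was higher, with differences of 0.24, 0.73 and 0.95, and MCM2, a subunit gene of the replicative helicase, was lower, with -0.25, -0.15 and -0.82. At 24 h 1 of the 15 was at least 1.5-fold higher, against 8.97% of all genes, and 2 were that much lower, against 9.2%.

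Among 4 further CDK inhibitor genes none passed limma over all arrays in any comparison. CDKN2C, the p18 gene, read 562 on the shHIF1A array, against 944 on the shGFP array, a difference of -0.72. Of 16 other cyclin genes, 15 passed the filter at 12 h of hypoxia, and 3 of these were at least 1.5-fold lower, against 7.03% of all genes, and none higher, against 7.0%. At 24 h 2 of 16 were that much higher, CCNL1 (0.91) and CCNK (0.71), against 8.97%, and 2 were lower, against 9.2%. CCNB1 and CCNA2, the mitotic and S phase cyclin genes, were at -1.55 and -1.11 at 12 h, and at -0.64 and -0.50 at 24 h, and none of the 16 passed limma for hypoxia over all times. Of 15 p53 target genes beside CDKN1A, 1 and 3 were at least 1.5-fold higher at 6 and 12 h of hypoxia, against 2.31% and 7.0% of all genes, and 4 of the 12 over the filter were at 24 h, against 8.97%. In shNDRG3 cells at 24 h 5 of 13 were that much higher, against 5.53%, and 1 was lower, against 6.93%. In hypoxia 1 of the 15 rose, the sestrin gene SESN1, by 0.89 (SE 0.12, limma adjusted p = 0.0431). SESN1 intensity was 943 and 954 at 6 and 12 h of hypoxia, against 496 in normoxia, and 1899 at 24 h, against 1016. That call was lost in 4 of 9 alternatives, with no filter, with the higher pseudocount and without the 12 h or the 24 h arrays (limma adjusted p up to 0.111). In shHIF1A cells SESN1 was 585, against 954 in shGFP cells, a difference of -0.68. In the fit of all 9 arrays none of the 80 genes of these 6 lists passed limma for NDRG3 or for HIF1A. Without the 24 h arrays 79 of the 80 genes were tested for NDRG3, and 1 passed as higher and 2 as lower. Of all 12156 genes in that fit, 318 passed as higher and 328 as lower. The 2 lower list genes included E2F5 at -0.78 (limma adjusted p = 2.71e-06). The E2F5 p-value carries the limits given for CCND1, as it measures the spread between 6 h and 12 h and leans on limma's prior. The HIF1A differences of CDKN2C and SESN1 in that fit, which rest on 1 shHIF1A array, were -0.71 and -0.69. Without the 6 h arrays 3 of the 80 genes passed as higher and 5 as lower for hypoxia, where 479 and 470 of all 12644 genes did. The list genes that passed included E2F7 at 1.03 (limma adjusted p = 0.012) and CCNB1 at -1.10 (limma adjusted p = 0.025), with 1 residual degree of freedom.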

How the data were processed

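Total RNA was amplified from 200 ng and biotin-labelled for Illumina arrays, per the labels' protocols. The authors deposited a gene-level table of linear intensity values for 9 arrays, and a probe intensity table per platform (29377 and 48803 probes). The normalization is not given in the sources used here. Sorted probe values agree between arrays of a platform (largest log2 deviation 0.0323 and 0.006), so values recur across arrays, and the lowest probe values were 58.0 and 104.7, so background is included and differences of dim genes are understated. Number of arrays limits the precision.

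The 10 genes and the lists were chosen with earlier results of these data known. Named genes were the members, up to 4 genes per list with the largest direct difference in any comparison, and the 4 genes most like CCND1, CCNG2 and the widest-ranging inhibitor gene. Marker genes without a row in the table used here were not analysed. Values were analysed as log2(intensity + 32). A gene was tested if 1 compared array reached the 40th percentile. Direct differences compare 1 array with 1 array and carry no test. limma 3.58.1 (R 4.3.3; lmFit and eBayes) was fitted to all genes, after a check on simulated data, with Benjamini-Hochberg adjustment over all genes tested. "Rose" refers to its calls. Nothing shows whether arrays came from separate cultures. Gene values were matched to means of up to 3 probes within 0.002 intensity units or a relative 1e-05. Probe names were not paired with genes in the tables used. Promoters and gene positions came from RefSeq (GRCh38.p14). Alternatives covered the filter, the pseudocount, background subtraction, median centring, the fold threshold, leaving out each time and single probes; the last was chosen after seeing the data.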

Additional observations from a re-analysis of the deposited data

Results flagged for a closer look

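For 2 genes the difference between shNDRG3 and shGFP cells changed sign between times, with at least 1 time beyond 1.5-fold; each time is 1 array against 1 array, and the change between times was not tested. CCND1 was at -1.21 at 6 h and at -1.30 at 12 h, whereas at 24 h, on the second platform, it was at 0.01. The sign of that CCND1 value is not fixed, since it ran between -0.01 and 0.02 over the alternatives. CDKN1C was at -1.45 at 24 h, whereas it was at 0.08 at 6 h and at 0 at 12 h. Over all genes, 6.93% were at least 1.5-fold lower in shNDRG3 cells at 24 h, against 0.423% at 6 h and 0.76% at 12 h.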

How the results depend on the processing

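Direct differences of the 10 genes kept their side of 1.5-fold in 382 of 392 recalculations, and of the differences beyond it the 1 that changed sign was CCNE2 at 12 h of hypoxia by its dim probe (-0.11). Counting those of any size, the sign changed in 11 of 112 recalculations from single probes, among them CCNE2 at 6 h of hypoxia (-0.18) and in shNDRG3 cells at 24 h (-0.31). The 112 are also among the 392. They include the only probes of CCND1, CCND3 and CDKN1C, which return the gene value and could not differ. The sign changed in 2 of the other 280, both after background subtraction and in shNDRG3 cells at 24 h (CCND1 and CDKN2B, -0.01 each). The 280 include the changes of pseudocount, which cannot alter a sign, so those outcomes were fixed in advance. The limma count for hypoxia, 56 genes, was 3 with no filter, 148 with a filter at the 60th percentile, 97 with background subtracted, 96 with no pseudocount and 7 with the higher pseudocount (4 times the one used), and 949, 94 and 90 without the 6 h, 12 h and 24 h arrays. For NDRG3 (1 gene) it was 0 with no filter, with the higher pseudocount and without the 12 h arrays, 2 with no pseudocount and 646 without the 24 h arrays, and for HIF1A (0 genes) 2011 without the 24 h arrays. At 2-fold in place of 1.5-fold, hypoxia counts were 108, 459 and 540 genes, shNDRG3 counts 13, 19 and 376 and the shHIF1A count 130; the members numbered 1, 2 and 3 in hypoxia and 1 in shHIF1A cells. After background subtraction the counts were 593 and 3229 for hypoxia at 6 h and 24 h and 193, 285 and 2645 for shNDRG3, and with the higher pseudocount they were 58 and 93 for shNDRG3 at 6 h and 12 h and 475 for shHIF1A. The shNDRG3 members at 24 h numbered 2 with no pseudocount and 3 after background subtraction. Without the 24 h arrays the limma hypoxia differences of CCND2, CCNE1 and CDKN2B turned to -0.17, 0.0021 and 0.11, and the NDRG3 differences of CCNE1, CDKN1B, CDKN1C, HIF1A and SESN1 to 0.0094, 0.12, 0.039, 0.10 and -0.17. Without the 12 h arrays that of CDKN1A turned to -0.025, and the HIF1A difference of NDRG3 was -0.034 with background subtracted and -0.060 without the 6 h arrays. None of these passed the test, and the cause was not tested.

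No paired analysis was possible because every group holds 1 array and the labels give no replicate numbers, other than the match of arrays by time that the NDRG3 fit already makes. Without the 12 h arrays there is no HIF1A value, since its control array is gone. Background intensity, and not depth, limits dim probes, such as those of CCNE2, CDKN1A and CDKN2B near the filter value. CCND1 and CDKN1C each rest on 1 probe.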
